A study of Saccharomyces cerevisiae with 8 samples.

Results

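The messenger RNA response of budding yeast (Saccharomyces cerevisiae) to a short heat shock was measured in cells that received no 5ph-IAA. The comparison used 4 of the 8 libraries of the series, chosen by their labels: 2 libraries from cells held for 5 min at 39 °C and 2 libraries from cells held for 5 min at 30 °C. All 4 came from strain W303a, a laboratory strain, grown beforehand at 30 °C to an OD600 of 0.2 to 0.4 in YPD with 2% dextrose. None of the 4 libraries was labelled with the auxin analogue 5ph-IAA, and the labels do not say whether these cells carried the degradable Ifh1 or received the solvent or β-estradiol. The other 4 libraries came from the same 2 temperatures after 30 min with 5 µM 5ph-IAA and 1 µM β-estradiol, a treatment that the treatment protocol gives for depleting Ifh1, a coactivator of ribosomal protein genes. The series' design text speaks of anchor away instead, and the labels do not settle how Ifh1 was removed; its protein was not measured here. Polyadenylated RNA was sequenced, and each library gave an estimated read count and a TPM value (a level per length, scaled to the same total in each library) for 6034 coding sequences.

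Heat unfolds proteins and engages a pair of transcriptional programmes in yeast. Hsf1, bound to heat shock elements, drives genes of chaperones, the proteins that hold, refold or disaggregate others, while Msn2 and Msn4, released from control by protein kinase A, act through stress response elements on genes of carbohydrate storage, redox defence and membrane protection. At the same time signalling through TORC1 and protein kinase A to ribosome production is reduced, and repressors that bind upstream of ribosome assembly genes come into play. Ribosome production is the main biosynthetic load of a growing yeast cell, and both sides of this response are known from many stresses.

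The libraries held 21025464 and 19974567 estimated counts at 39 °C, against 8917417 and 9068802 at 30 °C. The 2 libraries of a group were labelled as biological replicates, with no word on separate cultures, so p-values speak of the spread between these libraries, which may be technical. Their log2 CPM values correlated across 5734 genes at 0.993 at 39 °C and 0.986 at 30 °C, and the counts of a pair differed by more than sampling noise (chi-square per degree of freedom 4.51 at 39 °C and 4.24 at 30 °C). The receptor gene STE2, a marker of the a mating type, had 73.6 and 76.3 TPM at 39 °C, against 405 and 399 TPM at 30 °C. Of 5 tested a cell markers 4 were lower at 39 °C and 1, ASG7, higher, against 39.7% lower and 42.5% higher of all tested genes. The a cell markers together held 0.025% and 0.0266% of the TPM at 39 °C, against 0.0783% and 0.0751% at 30 °C. Alpha cell genes held 0.00315% and 0.00307% of the TPM at 39 °C, against 0.00258% and 0.00268% at 30 °C. Of 3 tested alpha cell genes 1, STE3, was higher at 39 °C, against the same 42.5%. RNA of whole cultures was sequenced, so a change in the number of responding cells and a change in RNA per cell cannot be told apart.

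Of the 5734 genes tested, 4712 changed at an adjusted p under 0.05, or 82.2%. They comprised 2438 genes higher at 39 °C (42.5%) and 2274 genes lower (39.7%), with a median log2 fold change of 0.04 over all tested genes and quartiles of −0.66 and 0.74. At least 2-fold rises were seen for 1092 genes (19.0%) and at least 2-fold falls for 986 (17.2%). At least 8-fold rises numbered 212 and falls 185, and at least 32-fold rises numbered 50 and falls 16. Genes called risen or fallen below passed edgeR's quasi-likelihood test, adjusted by Benjamini-Hochberg over all tested genes, and values written with ± are log2 fold changes of 39 °C over 30 °C with their standard errors. Since most genes were called, groups are described below by size as well as by direction. Every count of list members below is to be read against these 42.5% higher and 39.7% lower of all tested genes.

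The upstream regions of genes at both ends of the response are shown to let the short elements named above be seen in place. They are bases 300 to 91 before the start codon, from RefSeq R64 of strain S288C, written on the gene's own strand, with every match in capitals. The capitals mark heat shock elements (HSE, TTCNNGAANNTTC), stress response elements (STRE, AGGGG), PAC elements (GATGAG), RRPE elements (AAAAATTTT) and the proteasome element (PACE, GGTGGCAAA), each searched on both strands. They come from HSP42 (chrIV:806321-806530, plus strand), a small heat shock protein gene; HSP104 (chrXII:88323-88532, plus strand), the disaggregase gene; TSL1 (chrXIII:70324-70533, plus strand), of trehalose synthesis; the phosphoglucomutase pair PGM2 (chrXIII:477697-477906, minus strand) and PGM1 (chrXI:203241-203450, plus strand); NOG2 (chrXIV:723203-723412, minus strand), of large subunit assembly; SSB1 (chrIV:43765-43974, plus strand), a ribosome-bound Hsp70 gene; and RPN9 (chrIV:1321905-1322114, plus strand), of the proteasome.
HSP42: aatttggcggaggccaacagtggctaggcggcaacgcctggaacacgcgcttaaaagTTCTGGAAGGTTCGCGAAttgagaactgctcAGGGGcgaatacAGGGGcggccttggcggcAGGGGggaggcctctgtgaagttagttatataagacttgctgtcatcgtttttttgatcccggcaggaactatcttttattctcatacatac
HSP104: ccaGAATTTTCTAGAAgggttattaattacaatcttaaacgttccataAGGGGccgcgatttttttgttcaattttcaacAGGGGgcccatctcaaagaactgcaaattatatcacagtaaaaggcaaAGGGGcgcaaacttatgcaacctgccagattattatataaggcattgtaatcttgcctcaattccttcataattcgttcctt
TSL1: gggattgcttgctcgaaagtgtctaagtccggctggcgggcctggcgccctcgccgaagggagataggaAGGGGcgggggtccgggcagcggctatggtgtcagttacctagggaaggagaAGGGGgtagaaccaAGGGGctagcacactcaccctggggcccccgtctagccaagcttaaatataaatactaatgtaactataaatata
PGM2: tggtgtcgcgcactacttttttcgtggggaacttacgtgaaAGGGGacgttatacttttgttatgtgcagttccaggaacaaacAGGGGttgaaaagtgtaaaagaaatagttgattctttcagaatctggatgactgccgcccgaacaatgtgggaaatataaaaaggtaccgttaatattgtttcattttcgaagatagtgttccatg
PGM1: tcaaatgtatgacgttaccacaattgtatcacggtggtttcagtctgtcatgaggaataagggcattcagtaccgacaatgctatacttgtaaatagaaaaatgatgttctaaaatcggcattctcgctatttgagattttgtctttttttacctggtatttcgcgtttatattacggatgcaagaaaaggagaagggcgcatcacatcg
NOG2: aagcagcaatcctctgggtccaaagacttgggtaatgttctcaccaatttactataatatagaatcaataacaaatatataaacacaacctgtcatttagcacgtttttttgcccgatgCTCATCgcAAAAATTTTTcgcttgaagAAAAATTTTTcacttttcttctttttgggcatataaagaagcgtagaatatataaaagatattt
SSB1: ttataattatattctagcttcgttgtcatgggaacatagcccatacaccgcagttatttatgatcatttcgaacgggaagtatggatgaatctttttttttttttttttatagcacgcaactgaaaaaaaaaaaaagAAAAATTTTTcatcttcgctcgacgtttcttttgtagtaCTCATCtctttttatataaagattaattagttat
RPN9: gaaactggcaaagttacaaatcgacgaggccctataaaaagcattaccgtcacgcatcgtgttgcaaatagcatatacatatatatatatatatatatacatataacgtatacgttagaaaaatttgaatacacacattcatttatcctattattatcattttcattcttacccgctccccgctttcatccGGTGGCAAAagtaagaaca

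The HSP42 window held 2 overlapping HSE matches and 3 STRE, HSP104 1 HSE and 3 STRE, and TSL1 3 STRE. The window of PGM2, which rose, held 2 STRE, and that of its paralog PGM1, which was not called, held no STRE. The NOG2 window held 1 PAC and 4 RRPE, SSB1 1 PAC and 2 RRPE, where each run of AAAAATTTTT counts as 2, and RPN9 held 1 PACE. A match is a description of letters and not of a bound factor, and divergent neighbours can share a window.

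Over the 300 bases before each start codon, STRE stood upstream of 31 of 50 genes that rose at least 32-fold (62%), 54.9% of those that rose 8 to 32-fold and 41.6% of those that rose 2 to 8-fold. It stood upstream of 18.5% of genes that changed less than 2-fold or were not called. It stood upstream of 12% of genes that fell 2 to 8-fold and 9.73% of those that fell at least 8-fold, against 22.2% of all tested genes. The share with STRE thus ran in the order of the change. PAC stood upstream of 148 of 185 genes that fell at least 8-fold (80%) and 33.8% of those that fell 2 to 8-fold, against 19% of all tested genes. RRPE stood upstream of 102 of the 185 (55.1%) and 20.2% of those that fell 2 to 8-fold, against 7.63% of all. HSE of this 3-unit form was rare, upstream of 4 of the 50 genes with the largest rises (8%) and 0.875% of all tested genes. Among all 5994 upstream regions searched, HSE stood in 0.868%, STRE in 22.2%, PAC in 19.1%, RRPE in 7.36% and PACE in 1.2%.

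Read from motif to change, the 218 genes with both PAC and RRPE had a median log2 fold change of −2.44, and 199 of them fell (91.3%), against 39.7% of all tested genes. Genes with PAC alone had a median of −0.28 and those with RRPE alone −0.70, while genes with neither had 0.17. Genes with 1, 2 and 3 or more STRE and no HSE had medians of 0.51, 1.47 and 2.58, the last over 26 genes, against −0.09 for genes with neither element. Of the proteasome genes 27 of 33 held PACE (81.8%), and the 71 tested genes with PACE had a median of 0.35. Several of the largest rises, such as TMA10, BTN2 and HSP26, held none of the 5 motifs in this window, which says only that these letters are not there.

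**Figure D1:**
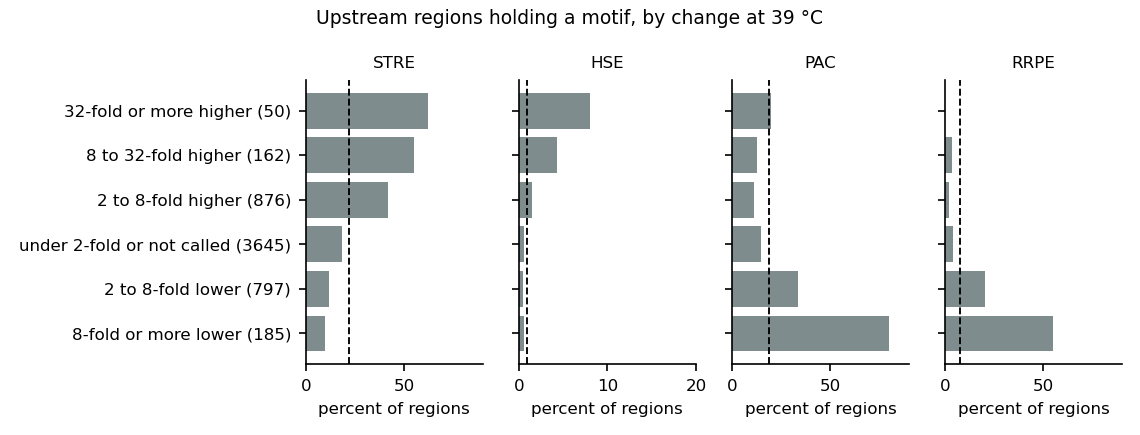
Share of genes (percent, horizontal axis) whose 300 upstream bases hold STRE, HSE, PAC or RRPE. Rows (vertical axis) give the size and direction of the change at 39 °C over 30 °C. The dashed line is the share of all tested genes, and the HSE panel has a shorter axis. STRE ran between 62% of genes at least 32-fold higher and 9.73% of genes at least 8-fold lower, and PAC reached 80% of the genes that fell at least 8-fold.

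The small heat shock proteins, which hold unfolded proteins, the disaggregase Hsp104 and the sorting factors of misfolded proteins were the group with the largest median rise among the lists examined. All 6 tested members rose, with a median log2 fold change of 6.67. HSP26 (YBR072W, chromosome II, 382030 to 382674, plus strand) had 7991 and 8080.2 TPM at 39 °C, against 15.2 and 18.6 TPM at 30 °C, a log2 difference of 8.76 ± 0.08 (edgeR, adjusted p = 1.26e-17). BTN2, which gathers misfolded proteins into deposits, had 7483 and 7440.2 TPM at 39 °C, against 32.5 and 29 TPM at 30 °C, and HSP104 (YLL026W, chromosome XII, 88623 to 91349, plus strand) had 5193 and 5042 TPM at 39 °C, against 69.8 and 60.8 TPM at 30 °C (7.79 ± 0.07 and 6.16 ± 0.05). CUR1 (sorting, 5.49 ± 0.06) rose less than its paralog BTN2, and HSP31, a chaperone and glyoxalase, rose by 2.14 ± 0.06. Together the 6 genes held 2.96% and 2.93% of the TPM at 39 °C, against 0.0238% and 0.0223% at 30 °C, a gain of 2.92 percentage points that was 4.47 as a share of estimated counts, and the groups did not overlap (exact permutation test of 2 against 2, p = 0.33, the smallest it can give).

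Cytosolic Hsp70s, the central folding machines, moved in both directions, and the ribosome-bound forms were lower. Of 11 Hsp70 genes and cofactors 7 rose and 4 fell (median 2.16), against 42.5% higher and 39.7% lower of all tested genes. SSA4 had 7341 and 7054 TPM at 39 °C, against 15.2 and 16 TPM at 30 °C, and FES1, a nucleotide exchange factor that releases Hsp70 clients, had 4803 and 4692 TPM at 39 °C, against 135 and 133 TPM at 30 °C, a log2 difference of 5.01 ± 0.05 (edgeR, adjusted p = 1.26e-17). The exchange factors SSE2 (5.74 ± 0.06) and SSE1 (2.12 ± 0.04) and the Hsp70 SSA3 (5.14 ± 0.06) rose too, as did SSA1 (4.40 ± 0.04) and SSA2 (2.16 ± 0.04), whose near-identical sequences can share reads. The 4 that fell included all 3 ribosome-bound Hsp70s. SSB1, which folds nascent chains, had 496 and 490.0 TPM at 39 °C, against 1941 and 1989.8 TPM at 30 °C, a log2 difference of −2.13 ± 0.04 (edgeR, adjusted p = 1.39e-14). Its near-copy SSB2, with which it can share reads, had −1.82 ± 0.05 and their partner SSZ1 −1.09 ± 0.05, and the membrane-anchored exchange factor SNL1 had −1.28 ± 0.11. Both heat libraries lay below both control libraries for SSB1 and SSB2, which with 2 libraries a group is a description and not a test.

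Of 13 tested genes of J-domain proteins, which hand clients to Hsp70s, 7 rose and 5 fell (median 0.37). Over all tested genes 42.5% were higher and 39.7% lower, so no direction is read from these counts. APJ1 (5.57 ± 0.07), SIS1 (4.52 ± 0.05) and YDJ1 (1.96 ± 0.04) led the rises, and HLJ1 of the endoplasmic reticulum rose by 1.71 ± 0.06. SIS1, the partner of Ssa Hsp70s in the cytosol and nucleus, had 4847 and 4684 TPM at 39 °C, against 199 and 179 TPM at 30 °C. The falls included ZUO1, the ribosome-bound partner of Ssz1 (−1.47 ± 0.04), and JJJ1, which acts with Rei1 on the large ribosomal subunit (−2.25 ± 0.07), with JJJ3, of diphthamide synthesis, at −1.91 ± 0.24. 

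In the Hsp90 system, which matures kinases and receptors, 9 of 14 rose and 4 fell (median 0.51). The shares over all tested genes were 42.5% higher and 39.7% lower. HSP82 had 5065 and 4966 TPM at 39 °C, against 69.3 and 66.1 TPM at 30 °C, a log2 difference of 6.08 ± 0.04 (edgeR, adjusted p = 2.69e-18), and its near-identical constitutive copy HSC82 rose by 2.10 ± 0.04. The cochaperones STI1 (4.04 ± 0.05), CPR6 (3.58 ± 0.04) and AHA1 (3.22 ± 0.04) rose, while PPT1, a phosphatase that acts on Hsp90, had 10 and 10.1 TPM at 39 °C, against 86.3 and 76.2 TPM at 30 °C, a log2 difference of −3.15 ± 0.06 (edgeR, adjusted p = 1.76e-14). CNS1, another cochaperone that is essential for growth, had −1.92 ± 0.08, and CPR7 and TAH1 had −0.66 ± 0.06 and −0.92 ± 0.12. The cochaperones of 1 chaperone thus moved in both directions.

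The chaperonin TRiC, which folds actin and tubulin, and its feeder prefoldin fell in all 14 genes, by a median of −0.98. The prefoldin gene PAC10 (−1.16 ± 0.06) and the chaperonin genes CCT3 (−1.10 ± 0.05) and CCT7 (−1.08 ± 0.04) fell most, and no member fell by more than 1.16 on the log2 scale. In mitochondria 8 of 14 chaperone genes rose and 4 fell (median 0.36), against 42.5% higher and 39.7% lower of all tested genes. HSP78, the mitochondrial disaggregase, had 2947 and 2913 TPM at 39 °C, against 24.2 and 22.5 TPM at 30 °C, a log2 difference of 6.84 ± 0.05 (edgeR, adjusted p = 1.98e-18). MDJ1, the J-domain partner of the matrix Hsp70, rose by 4.32 ± 0.05, and the chaperonin genes HSP60 (2.21 ± 0.04) and HSP10 (2.15 ± 0.07) rose alike. Parts of the import motor fell, PAM18 (−1.18 ± 0.07), PAM16 (−0.80 ± 0.08) and TIM44 (−0.65 ± 0.06), with the exchange factor MGE1 (−1.03 ± 0.06).

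Genes of protein removal rose, with larger medians in the ubiquitin and autophagy lists than in the proteasome. Of 20 genes of ubiquitin and quality control 16 rose (median 0.73), led by the polyubiquitin gene UBI4 (3.81 ± 0.05) and the conjugating enzymes UBC8 (2.22 ± 0.09) and UBC4 (1.68 ± 0.06). Among the 4 that fell, SAN1, a ligase for misfolded nuclear proteins, had −0.61 ± 0.07, and SSM4, a ligase of the endoplasmic reticulum, −0.63 ± 0.06. Of 27 autophagy genes 24 rose and 1, ATG5, fell (−0.59 ± 0.08), with a median of 1.90. ATG41 had 2959.7 and 2916 TPM at 39 °C, against 24.7 and 24.3 TPM at 30 °C, a log2 difference of 6.77 ± 0.07 (edgeR, adjusted p = 6.06e-17). ATG39, the receptor for autophagy of the nuclear envelope (4.78 ± 0.12), the E1-like enzyme ATG7 (2.94 ± 0.09) and the ubiquitin-like ATG8 (2.66 ± 0.13) followed. Proteasome subunits rose in 24 of 33 cases but by a median of only 0.27, at most 0.71 ± 0.06 for RPN9, while their activator RPN4 had 476 and 452 TPM at 39 °C, against 36 and 31.3 TPM at 30 °C.

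**Figure D2:**
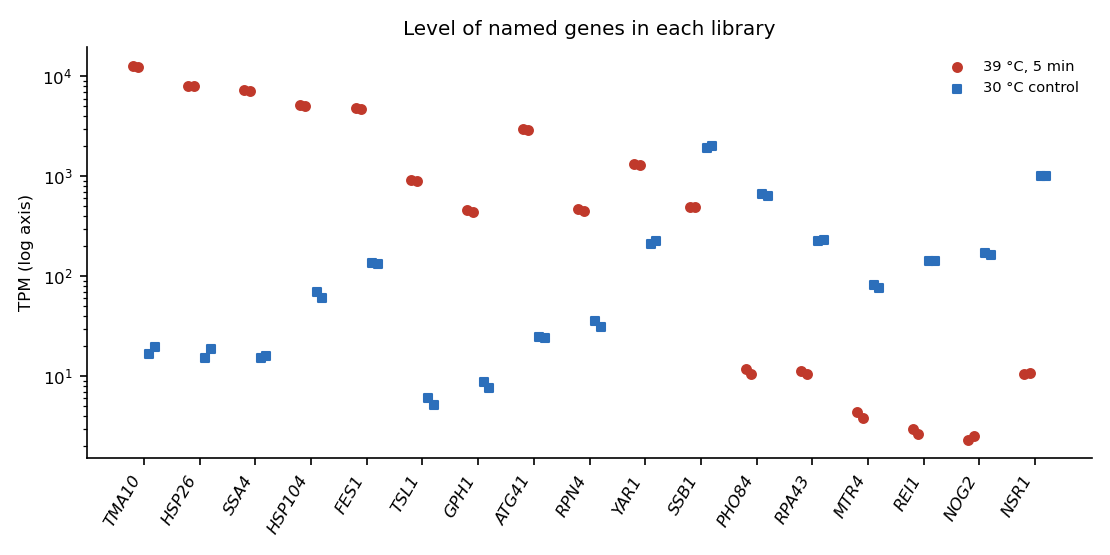
Level (TPM, log axis) of 17 genes in each library, red circles for the 2 libraries at 39 °C on the left of each gene and blue squares for the 2 at 30 °C on the right. The 2 libraries of a temperature lay close together for each gene, and the groups did not overlap: genes between TMA10 and YAR1 were higher at 39 °C, and genes between SSB1 and NSR1 lower. The 17 genes were picked among those called, so this separation is not a test.

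Genes of storage carbohydrates rose almost throughout. Trehalose, a disaccharide that protects proteins and membranes, and glycogen, the glucose store, are both built from glucose phosphate. Of 10 trehalose genes 9 rose (median 3.45), and all 12 glycogen genes rose (median 4.01). TSL1, a regulatory subunit of trehalose synthase, had 927 and 896 TPM at 39 °C, against 6.04 and 5.13 TPM at 30 °C, a log2 difference of 7.22 ± 0.07 (edgeR, adjusted p = 1.26e-17). The synthase TPS1 (3.87 ± 0.05) and phosphatase TPS2 (5.02 ± 0.05) rose, and so did all 3 trehalases that break the sugar down, NTH1 (3.03 ± 0.05), NTH2 (2.83 ± 0.06) and ATH1 (2.75 ± 0.06). PGM1 was not called (−0.08 ± 0.05), though it was called lower with RLE factors, library totals or DESeq2.

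Genes of glycogen synthesis and of its breakdown both rose. The synthase gene GSY1 had 229 and 213 TPM at 39 °C, against 3.15 and 2.64 TPM at 30 °C, and GPH1, the phosphorylase that releases glucose from glycogen, had 464 and 443 TPM at 39 °C, against 8.73 and 7.61 TPM at 30 °C (6.13 ± 0.08 and 5.67 ± 0.06). The branching enzyme GLC3 (4.86 ± 0.06), the debranching enzyme GDB1 (3.76 ± 0.07) and the primer protein GLG1 (4.05 ± 0.08) rose, as did the phosphatase targeting subunits GIP2 (5.81 ± 0.10), GAC1 (4.09 ± 0.08), PIG2 (3.97 ± 0.07) and PIG1 (1.03 ± 0.14). Outside the list, IGD1, an inhibitor of the debranching enzyme, rose by 5.88 ± 0.11. STRE stood upstream of 6 of 10 trehalose genes and 5 of 12 glycogen genes (60% and 41.7%), against 22.2% of all regions.

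Most glucose carrier genes rose. Of 18 transport and sensing genes 14 rose and 3 fell (median 1.35). HXT5 had 154 and 152 TPM at 39 °C, against 4.76 and 6.26 TPM at 30 °C, a log2 difference of 4.66 ± 0.09 (edgeR, adjusted p = 8.54e-15), and HXT2 rose by 2.64 ± 0.04. HXT7 (5.57 ± 0.05) and HXT6 (4.20 ± 0.18) rose too, but their near-identical sequences can share reads. HXT1, a low-affinity carrier, had 36.9 and 35.8 TPM at 39 °C, against 169 and 161 TPM at 30 °C (−2.31 ± 0.05). HXT3, also of low affinity and named after its value was seen, rose (0.46 ± 0.04). MTH1, a corepressor of carrier genes, rose by 2.73 ± 0.11, and MIG2 and STD1, further regulators of glucose repression and sensing, fell slightly (−0.25 ± 0.09 and −0.66 ± 0.06), the call of MIG2 being lost from TPM, without heat shock replicate 2 and without control replicate 2.

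Of 27 glycolysis and fermentation genes 13 rose and 11 fell (median 0.16), against 42.5% higher and 39.7% lower of all tested genes. No direction is read from these counts. The kinases HXK1 (6.04 ± 0.05), GLK1 (4.57 ± 0.07) and EMI2 (4.26 ± 0.07) rose, and so did the pyruvate kinase PYK2 (3.45 ± 0.07). CDC19, the main pyruvate kinase, had 3293 and 3319 TPM at 39 °C, against 5945 and 5805 TPM at 30 °C, and PDC1, pyruvate decarboxylase, had 2391 and 2268 TPM at 39 °C, against 4669.5 and 4349.6 TPM at 30 °C (−0.96 ± 0.04 and −1.08 ± 0.04). Of the other abundant forms, FBA1 (−0.50 ± 0.04) and ENO2 (−0.27 ± 0.03) fell, TDH3 rose (0.32 ± 0.04) and GPM1 was not called (0.06 ± 0.04), though it was called higher with limma on TPM. As a group the genes held 6.33% and 6.25% of the TPM at 39 °C, against 6.06% and 5.93% at 30 °C. 

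The pentose phosphate pathway, the source of NADPH, rose in 9 of 13 genes and fell in 4 (median 1.06). The shares over all tested genes were 42.5% higher and 39.7% lower. SOL4 (5.49 ± 0.11), ZWF1 (1.84 ± 0.16) and GND2 (3.41 ± 0.07) of the oxidative branch rose, but GND1, the more abundant paralog of GND2, fell slightly (−0.22 ± 0.04). Of the summed TPM of GND2 and GND1, GND2 made up 15.2% and 15.2% at 39 °C, against 1.4% and 1.44% at 30 °C. The sum itself was 513 and 507.5 TPM at 39 °C, against 479.2 and 457.8 TPM at 30 °C. RKI1, the ribose phosphate isomerase, had 30.4 and 32.2 TPM at 39 °C, against 179.9 and 179.7 TPM at 30 °C, a log2 difference of −2.65 ± 0.09 (edgeR, adjusted p = 2.03e-12). ZWF1, which is outside the naming rule, was named for its place at the head of the pathway after its value was seen. Glycerol genes rose in 9 of 11 cases (median 1.29), with GPD1, which makes glycerol phosphate, at 4.15 ± 0.06 and the NADP-dependent enzyme GCY1 at 3.95 ± 0.06. GPP1, the constitutive glycerol phosphatase, was the 1 that fell (−1.77 ± 0.04).

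Most acetyl-CoA and citric acid cycle genes rose. The aldehyde dehydrogenases ALD3 (6.15 ± 0.08), ALD4 (4.36 ± 0.06) and ALD6 (2.89 ± 0.05) rose, while ALD5, a mitochondrial form, had 24.5 and 19.7 TPM at 39 °C, against 87.2 and 84.7 TPM at 30 °C (−2.09 ± 0.08), and 6 of 8 genes of the list rose in all (median 2.13). Of the acetyl-CoA synthetases ACS1 rose (0.69 ± 0.12) and ACS2 fell (−0.97 ± 0.04). Of 29 cycle and gluconeogenic genes 25 rose (median 0.97), led by the citrate synthases CIT1 (3.11 ± 0.05) and CIT2 (2.96 ± 0.06). PYC2, a pyruvate carboxylase, was 1 of 2 that fell (−0.50 ± 0.05). In the respiratory chain 21 of 34 genes rose (median of the list 0.36), with the NADH dehydrogenases NDE2 at 3.67 ± 0.24 and NDI1 at 2.34 ± 0.07, and 5 fell, a number that was 8 with library totals and 3 with limma on log2(TPM + 1). Of all tested genes 42.5% were higher and 39.7% lower.

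Redox defence rose in 20 of 31 genes and fell in 7, or 4 from TPM (median 0.72). The shares over all tested genes were 42.5% higher and 39.7% lower. CTT1, the cytosolic catalase, had 776 and 764 TPM at 39 °C, against 7.12 and 6.48 TPM at 30 °C, a log2 difference of 6.69 ± 0.06 (edgeR, adjusted p = 1.26e-17). AHP1, a thiol peroxidase and the gene with rank 5 by TPM at 39 °C, had 8366 and 8489 TPM at 39 °C, against 1417 and 1452 TPM at 30 °C (2.42 ± 0.05), and the mitochondrial peroxiredoxin PRX1 rose by 3.30 ± 0.06. GPX2, a peroxidase, fell (−1.13 ± 0.19) while its relative GPX1 rose (2.53 ± 0.11). 

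A mixed list of stress-induced genes, for membrane and surface proteins and others, rose in 17 of 18 cases (median 3.78). TMA10, a ribosome-associated protein, had 12772 and 12513 TPM at 39 °C, against 16.9 and 19.4 TPM at 30 °C, a log2 difference of 9.30 ± 0.08 (edgeR, adjusted p = 1.26e-17). RGI1, named for its part in respiratory growth, had 4504 and 4577 TPM at 39 °C, against 12.7 and 11.9 TPM at 30 °C, and HSP12, which lies on membranes, had 11542 and 11849.5 TPM at 39 °C, against 186 and 225 TPM at 30 °C (8.40 ± 0.08 and 5.70 ± 0.09). RGI2 had 36 and 24 estimated counts at 39 °C, against 0 and 0 at 30 °C, at least 4.6-fold higher with a floor of 3 counts per library. SPI1, a cell surface protein, rose by 6.06 ± 0.08, and MRH1, a membrane protein, was the 1 that fell (−1.30 ± 0.06) while its paralog YRO2 rose (2.40 ± 0.06). The 19 genes of the list, of which 18 were tested, held 4.09% and 4.12% of the TPM at 39 °C, against 0.244% and 0.254% at 30 °C. This gain of 3.86 percentage points was 1.36 as a share of estimated counts.

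**Figure D3:**
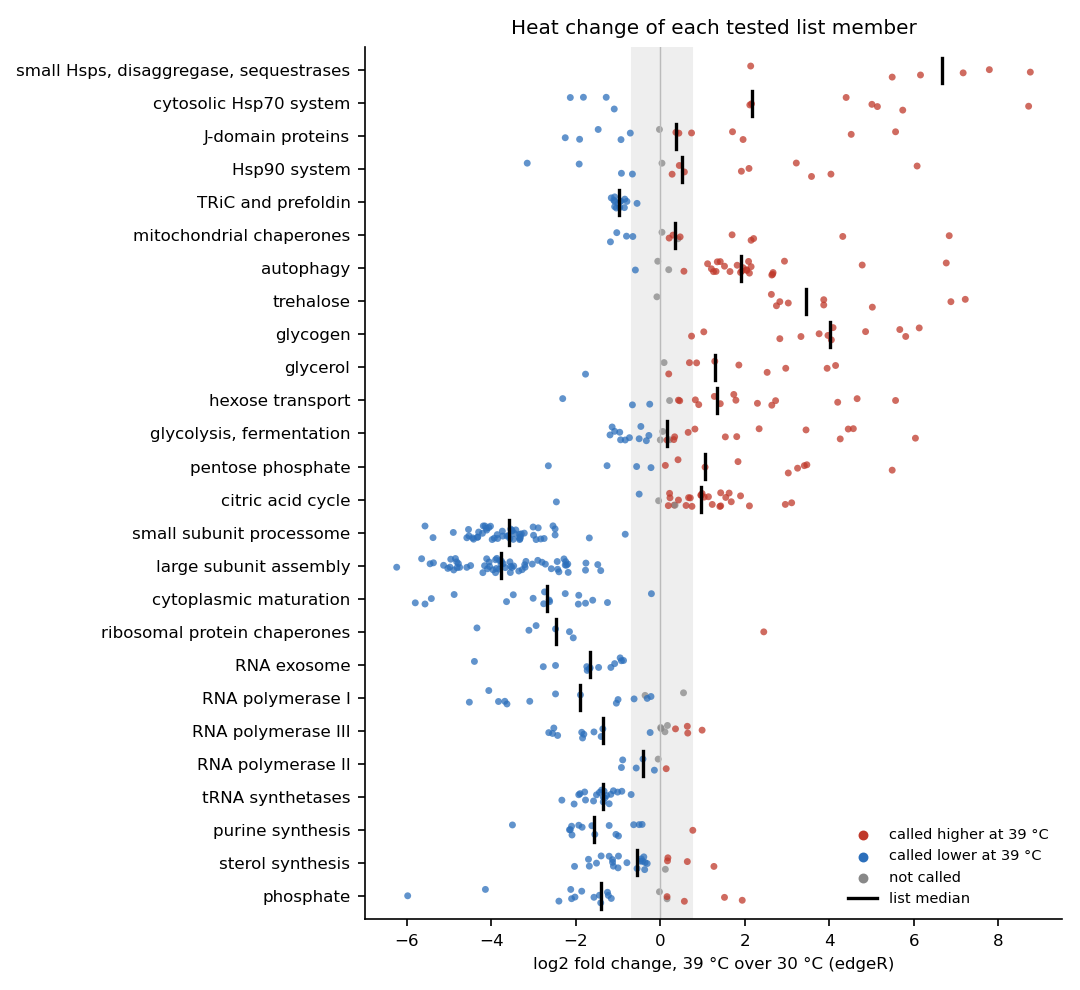
Log2 fold change of 39 °C over 30 °C (horizontal axis) for each tested member of 26 gene lists (rows), red where higher, blue where lower and grey where not called; black bars are list medians and the grey band spans the quartiles of all tested genes, −0.66 and 0.74. Small heat shock proteins, glycogen and trehalose lie far to the right, ribosome assembly lists far to the left with no member higher, and Hsp70, J-domain and Hsp90 lists have members on both sides.

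Many of these enzymes exist as a pair of paralogs, so 31 pairs were set side by side, with the form better known from stress, where there is one, first. Of the 31, the first gene rose and the partner fell in 8, both rose in 21, and in 2 the partner was not called. In 26 pairs the first gene had the larger log2 fold change. Of the summed TPM of PGM2 and PGM1, PGM2 made up 92.6% and 92.8% at 39 °C, against 9.79% and 8.67% at 30 °C. Of that of the cytochrome c forms CYC7 and CYC1, CYC7 made up 70.5% and 70.5% at 39 °C, against 2.48% and 2.17% at 30 °C. Of that of the hexokinases HXK1 and HXK2, HXK1 made up 79.3% and 79.5% at 39 °C, against 6.67% and 7.13% at 30 °C. In each of these pairs the first gene was the larger part in both libraries at 39 °C and the smaller part in both at 30 °C. 

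Other pairs shifted by differing amounts, and some ran the other way. Of the summed TPM of HSP82 and HSC82, HSP82 made up 55.1% and 54.3% at 39 °C, against 7.18% and 6.98% at 30 °C, a split that is uncertain because the near-identical copies can share reads. Of that of SSA4 and SSA2, SSA4 made up 50.5% and 49.8% at 39 °C, against 1% and 1.1% at 30 °C. Of that of the transketolases TKL2 and TKL1, TKL2 made up 21.1% and 22.7% at 39 °C, against 1.03% and 1.06% at 30 °C, and of that of the pyruvate kinases PYK2 and CDC19, PYK2 made up 3.27% and 3.05% at 39 °C, against 0.145% and 0.16% at 30 °C. In both of these pairs the partner stayed the larger part. In 5 pairs the partner had the larger rise. Of the summed TPM of the glycogen synthases GSY2 and GSY1, GSY2 made up 38.6% and 39.8% at 39 °C, against 81% and 82.5% at 30 °C. Of that of CUR1 and BTN2, CUR1 made up 11.6% and 11.5% at 39 °C, against 39.1% and 39.1% at 30 °C. MSN4, NTH2 and UBC5 were the other 3, with shares of 53% and 55.4% at 39 °C, against 58.6% and 60.2% at 30 °C for MSN4. STRE stood upstream of the first gene alone in 11 of 30 pairs with both regions, of the partner alone in 2, of both in 8 and of neither in 9.

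**Figure D4:**
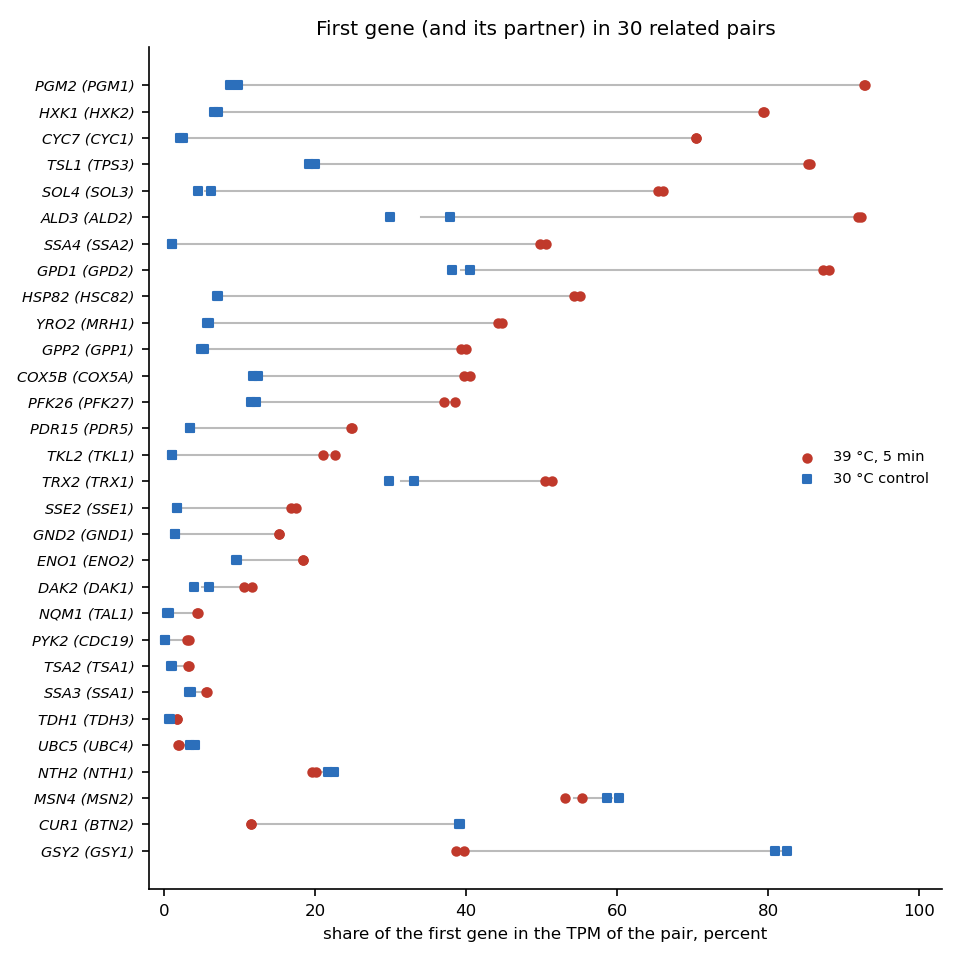
Share of the first gene in the summed TPM of its pair (percent, horizontal axis) in each library for 30 pairs (rows), red circles for 39 °C and blue squares for 30 °C. PGM2, HXK1 and CYC7 made up over 70% of their pairs at 39 °C and under 10% at 30 °C, while GSY2 and CUR1 had lower shares at 39 °C.

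Ribosome assembly genes fell throughout. The small subunit processome, which folds and cuts the precursor RNA, fell in all 51 genes (median −3.59), and the nuclear assembly factors of the large subunit fell in all 61 (median −3.76). DHR2, a helicase linked to the processome, had 1.05 and 1.05 TPM at 39 °C, against 41.4 and 39.1 TPM at 30 °C, a log2 difference of −5.38 ± 0.12 (edgeR, adjusted p = 2.67e-14), and UTP14, which activates the helicase Dhr1, had 2.84 and 2.86 TPM at 39 °C, against 81 and 74.6 TPM at 30 °C (−4.90 ± 0.06). For the large subunit, the assembly factor CIC1 had 7.33 and 6.27 TPM at 39 °C, against 279.7 and 266 TPM at 30 °C, a log2 difference of −5.45 ± 0.08 (edgeR, adjusted p = 4.74e-16), and RPF2, which brings in the 5S particle, had 6.02 and 5.6 TPM at 39 °C, against 191 and 181 TPM at 30 °C (−5.13 ± 0.06). For these 4 genes both heat libraries lay below both control libraries. That order describes picked genes and is not a test, as the share of all genes ordered so is not given here. The processome genes held 0.0596% and 0.0577% of the TPM at 39 °C, against 0.518% and 0.498% at 30 °C, and the large subunit genes 0.116% and 0.114% of the TPM at 39 °C, against 1.09% and 1.06% at 30 °C. These are differences of −0.45 and −0.958 percentage points of the TPM, and as shares of estimated counts they were −1.15 and −1.7.

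Later and parallel steps fell with them. All 18 genes of cytoplasmic maturation fell (median −2.68), among them ALB1 (−5.57 ± 0.12) and ARX1 (−5.42 ± 0.07), which leave the nucleus on the large subunit, and REI1 (−5.80 ± 0.08), which strips them from it. TSR1, of the small subunit, had 3.62 and 4 TPM at 39 °C, against 108 and 97 TPM at 30 °C (−4.88 ± 0.07). All 12 genes listed for the particles that modify ribosomal RNA and their cofactors fell (median −2.96), with the pseudouridine synthase CBF5 at −3.74 ± 0.05, the methyltransferase NOP1 at −3.52 ± 0.04 and the helicase RVB2 at −0.75 ± 0.05. NSR1, a nucleolin-like protein of the nucleolus, had 10.6 and 10.8 TPM at 39 °C, against 1017 and 999 TPM at 30 °C (−6.68 ± 0.06). The exosome, which trims RNA from its 3′ end, fell in all 13 genes (median −1.66). Its helicase MTR4 had 4.39 and 3.83 TPM at 39 °C, against 82 and 76.5 TPM at 30 °C, a log2 difference of −4.40 ± 0.07 (edgeR, adjusted p = 1.27e-15), and its nuclear nuclease RRP6 had −2.77 ± 0.06. PAC stood upstream of 44 of 51 processome genes (86.3%), 53 of 61 large subunit genes (86.9%) and 8 of 13 exosome genes (61.5%), against 19.1% of all regions.

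Dedicated chaperones of single ribosomal proteins fell in 6 of 7 cases (median −2.48). SYO1, which carries Rpl5 and Rpl11 into the nucleus, had 4.07 and 4.45 TPM at 39 °C, against 78.7 and 78.5 TPM at 30 °C, a log2 difference of −4.34 ± 0.07 (edgeR, adjusted p = 3.11e-15). TSR2, for Rps26, and RRB1, for Rpl3, fell (−3.11 ± 0.07 and −2.94 ± 0.05), and BCP1, for Rpl23, ACL4, for Rpl4, and SQT1, for Rpl10, had −2.48 ± 0.06, −2.15 ± 0.06 and −2.06 ± 0.06. YAR1, the chaperone of Rps3, was the exception and had 1337 and 1298 TPM at 39 °C, against 212 and 227 TPM at 30 °C, a log2 difference of 2.45 ± 0.06 (edgeR, adjusted p = 4.7e-14). Its 300 upstream bases held 1 PAC and no HSE or STRE, while those of SYO1 held 6 PAC and 1 RRPE. The ribosomal protein genes themselves fell less far, 130 of 131 tested with a median of −1.22. All 137 listed held 19.3% and 19.8% of the TPM at 39 °C, against 39.7% and 40.6% at 30 °C.

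RNA polymerase genes fell unequally. The 7 subunits shared between polymerases fell in all cases (median −2.17), from RPC19 of polymerases I and III (−3.02 ± 0.09) to RPB10 (−1.47 ± 0.10). Of 15 polymerase I genes and initiation factors 13 fell (median −1.89), with RPA43 at −4.52 ± 0.07 and RPA12 at −4.06 ± 0.10. In polymerase III 11 of 19 fell, and the 4 that rose were 3 subunits of the promoter factor TFIIIC and the repressor MAF1. TFC3 had 18.8 and 17.4 TPM at 39 °C, against 8.91 and 7.77 TPM at 30 °C (0.99 ± 0.08), TFC7 0.65 ± 0.07, TFC8 0.36 ± 0.08 and MAF1 0.64 ± 0.08, while RPC82, a core subunit, had 14.8 and 12.2 TPM at 39 °C, against 78.6 and 75 TPM at 30 °C (−2.64 ± 0.07). Subunits found in polymerase II alone had a median of −0.41 with 5 of 7 lower and RPB4 higher (0.14 ± 0.05), a call lost with RLE factors, library totals and DESeq2, in the fit of these 4 libraries alone, without heat shock replicate 2 and without control replicate 2.

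Translation factors fell too. Of 26 initiation factor genes 25 fell (median −1.55), including the eIF5 gene TIF5 (−2.24 ± 0.05) and the eIF3 subunit RPG1 (−2.21 ± 0.05). TIF4631, a scaffold eIF4G, had 27.8 and 27.6 TPM at 39 °C, against 185 and 177 TPM at 30 °C (−2.84 ± 0.05), whereas its paralog TIF4632, the 1 gene not called, had −0.10 ± 0.05 and was named after its value was seen. It was called lower with RLE factors, library totals, DESeq2 and in the fit of these 4 libraries alone. Elongation and termination genes fell in 12 of 14 cases (median −1.13), with the release factors SUP35 (−2.07 ± 0.05) and SUP45 (−1.85 ± 0.05) among them, and HEF3 (0.78 ± 0.15), a rarely expressed copy of YEF3, and EFB1 (0.38 ± 0.05) rose. All 21 aminoacyl-tRNA synthetase genes fell (median −1.35), with YHR020W, the prolyl form (−2.33 ± 0.05), CDC60, the leucyl form (−2.04 ± 0.04), and ALA1, the alanyl form (−1.93 ± 0.04), falling most. RRPE stood upstream of 13 of the 21 (61.9%) and PAC upstream of 5 (23.8%).

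Most genes of purine and amino acid synthesis fell. Purine synthesis fell in 15 of 16 genes (median −1.58). ADE4, the first step, had 27.5 and 25.4 TPM at 39 °C, against 110.3 and 101 TPM at 30 °C, a log2 difference of −2.13 ± 0.06 (edgeR, adjusted p = 1.1e-12), and GUA1, of GMP synthesis, had −2.10 ± 0.05. IMD4 (−3.50 ± 0.05) can share reads with its near-copies IMD2 and IMD3. ADE16 rose (0.77 ± 0.04) while ADE17, which encodes the same step, had −1.93 ± 0.06, named after its value was seen. Amino acid synthesis fell in 37 of 45 genes (median −0.90), most for the branched-chain genes ILV5 (−3.21 ± 0.05) and ILV3 (−2.78 ± 0.05), and rose in SER3 (0.85 ± 0.06), LYS1 (0.58 ± 0.06) and HIS5 (0.19 ± 0.05), the last a call lost with library totals or DESeq2. ILV5, the reductoisomerase, had 64 and 60.5 TPM at 39 °C, against 528 and 524 TPM at 30 °C. Of 24 sulfur and methionine genes 9 rose and 11 fell (median −0.19), against 42.5% higher and 39.7% lower of all tested genes. No direction is read from these counts. At the lower end of that list SAM1, which makes S-adenosylmethionine and is a close copy of SAM2, had 58.3 and 49.4 TPM at 39 °C, against 521 and 503 TPM at 30 °C (−3.38 ± 0.06). At its upper end MET28, a regulator of sulfur genes, rose (3.04 ± 0.18).

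Against that fall, the 3 genes of aromatic amino acid breakdown rose: the aminotransferase ARO9 (3.62 ± 0.05), the decarboxylase ARO10 (3.58 ± 0.05) and their activator ARO80 (0.78 ± 0.07). ARO10 had 672 and 652 TPM at 39 °C, against 50.6 and 50.4 TPM at 30 °C, a log2 difference of 3.58 ± 0.05 (edgeR, adjusted p = 4.33e-16). Sterol synthesis fell in 20 of 25 genes (median −0.55), with ERG3 (−2.03 ± 0.05), ERG11 (−1.70 ± 0.04) and the squalene epoxidase ERG1 (−1.68 ± 0.04) lowest, while their activators ECM22 (1.27 ± 0.07) and UPC2 (0.64 ± 0.09) rose. ERG11, the demethylase that azole drugs inhibit, had 247 and 246 TPM at 39 °C, against 725 and 733 TPM at 30 °C. Phosphate genes fell in 13 of 19 cases (median −1.41), with PHO84 and PHM6 (−4.14 ± 0.27) at the head and the polyphosphate synthase subunits VTC4 (−2.10 ± 0.05) and VTC3 (−2.12 ± 0.05) among them. PHO84, the high-affinity carrier, had 11.9 and 10.6 TPM at 39 °C, against 665 and 638 TPM at 30 °C. The activators of these genes, PHO4 (0.57 ± 0.21) and PHO2 (1.52 ± 0.05), were among the 4 that rose, a number that was 2 without heat shock replicate 1 or without either control library, where the call of PHO4 was lost. 

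Iron, cell wall and cell cycle genes are given with the 42.5% higher and 39.7% lower of all tested genes beside them, and no direction is read from their counts. Of 16 iron genes 8 rose and 7 fell. The reductase FRE1 had 8.2 and 8.17 TPM at 39 °C, against 60.8 and 54 TPM at 30 °C (−2.94 ± 0.07), and the permease FTR1 and its partner oxidase FET3 had −1.44 ± 0.05 and −0.78 ± 0.05, while the haem oxygenase HMX1 (1.56 ± 0.06) and the mannoprotein FIT2 (1.26 ± 0.14) rose. Cell wall genes had 9 higher and 9 lower of 21, with the transglycosylases UTR2 (−2.79 ± 0.05) and GAS1 (−1.78 ± 0.04) and the glucan synthase FKS1 (−1.53 ± 0.05) lower and CWP1 (1.64 ± 0.06) and the alternative glucan synthase GSC2 (0.93 ± 0.07) higher. Of 20 cell cycle genes 7 rose and 10 fell. The G1 cyclin gene CLN2 had 21.7 and 22.7 TPM at 39 °C, against 146 and 139 TPM at 30 °C, a log2 difference of −2.81 ± 0.07 (edgeR, adjusted p = 8.71e-14), and PCL1 (−2.39 ± 0.09), a G1 cyclin of Pho85, and FAR1 (−2.34 ± 0.07), an inhibitor of G1 kinase, fell with it.

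Regulators were altered too, as were 82.2% of all tested genes, 42.5% higher and 39.7% lower. Of 16 heat and stress transcription factors 12 rose and 2 fell, or 1 with limma on TPM or without control replicate 1 (median 0.92), the largest rises being USV1 (4.03 ± 0.08), RPN4 (3.66 ± 0.05), XBP1 (3.31 ± 0.07) and GIS1 (3.17 ± 0.06). XBP1, a repressor of cyclin genes, had 61.1 and 56.1 TPM at 39 °C, against 5.44 and 5.34 TPM at 30 °C. SKN7, a partner of Hsf1 and Yap1 under oxidative stress, had −0.98 ± 0.05. Among the kinases YAK1, which opposes protein kinase A, had 196 and 194 TPM at 39 °C, against 12.3 and 11 TPM at 30 °C (3.94 ± 0.05), and PSK1 (2.56 ± 0.06) and RIM15 (1.02 ± 0.06) rose, while SCH9, the TORC1 effector, had −0.83 ± 0.06. In the Ras and protein kinase A pathway 11 of 15 rose and 2 fell (median 1.11), against the same shares. Among the rises were the Ras inhibitor IRA2 (3.45 ± 0.06) and the cyclase CYR1 (2.05 ± 0.06). RAS2 rose (1.61 ± 0.05) and its paralog RAS1 fell (−2.36 ± 0.07). Of 12 ribosome regulators 6 rose and 5 fell, against 42.5% higher and 39.7% lower of all tested genes. The largest change was in TOD6, a repressor that binds PAC, which had 5.15 and 4.7 TPM at 39 °C, against 109 and 110.0 TPM at 30 °C (−4.60 ± 0.07). Its paralog DOT6 (0.88 ± 0.05) and STB3 (1.13 ± 0.06), a repressor that binds RRPE, rose, and IFH1 had 10.1 and 9.06 TPM at 39 °C, against 24.1 and 22.6 TPM at 30 °C (−1.41 ± 0.07). Of 20 mRNA decay genes 8 rose and 11 fell, or 4 from TPM, against the same 42.5% and 39.7%. The decapping enhancer DHH1 rose by 1.33 ± 0.06. EDC2, a further decapping enhancer with the largest rise of that list, had 710.4 and 704 TPM at 39 °C, against 74.2 and 86.6 TPM at 30 °C.

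The order of the most abundant messages changed as well. Of the 15 genes highest by mean TPM, 6 were the same at both temperatures, and ribosomal protein genes made up 0 of 15 at 39 °C, against 7 of 15 at 30 °C. TMA10 ranked 3 at 39 °C, against 3982 at 30 °C, HSP26 ranked 6, against 4109, and SSA4 ranked 9, against 4251. HSP12 ranked 4 at 39 °C and 663 at 30 °C. Ranks 1 and 2 were held by CCW12, a cell wall protein, and TDH3, a glycolytic dehydrogenase, at both temperatures. RPS31, of the small subunit, ranked 29 at 39 °C, against 3 at 30 °C.

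Large changes also lay outside the lists. RTC3 had 4597 and 4568 TPM at 39 °C, against 38.2 and 35.2 TPM at 30 °C, a log2 difference of 6.83 ± 0.08 (edgeR, adjusted p = 1.2e-16). PHM7 (6.05 ± 0.10), FMP45 (5.82 ± 0.34), an eisosome-related membrane protein, CAR2 (5.68 ± 0.18), ornithine aminotransferase, SIP4 (5.54 ± 0.15), an activator of gluconeogenic genes, and DCS2 (5.13 ± 0.07), a cap metabolism protein, rose at least 32-fold. MPC3, a subunit of the mitochondrial pyruvate carrier, had 114 and 120.4 TPM at 39 °C, against 2.31 and 4.15 TPM at 30 °C (5.03 ± 0.21). Of the falls, RRP12, a ribosome export factor, had 3.68 and 2.93 TPM at 39 °C, against 110.2 and 107 TPM at 30 °C (−5.16 ± 0.07), and FCY2, the carrier of purines and cytosine, had 13.6 and 10.6 TPM at 39 °C, against 323 and 307 TPM at 30 °C (−4.83 ± 0.08). PWP1 (−4.63 ± 0.08), a chromatin-linked factor of ribosome production, DBP2 (−4.51 ± 0.05), an RNA helicase, and HMT1 (−4.34 ± 0.08), an arginine methyltransferase, fell alongside. BSC1 had 4.7 and 4.43 TPM at 39 °C, against 94.6 and 93.7 TPM at 30 °C, a log2 difference of −4.49 ± 0.11 (edgeR, adjusted p = 1.44e-13).

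The response was set against that of the 4 libraries with 5ph-IAA, which share no library with it, by a test of the difference between the changes. The difference passed for 2805 genes (48.9%), positive for 1315 and negative for 1490 (edgeR). Small heat shock proteins had medians of 6.67 without and 6.01 with 5ph-IAA, and glycogen genes 4.01 and 3.22. Processome genes had medians of −3.59 without and −2.22 with 5ph-IAA, and the difference was called for 49 of 51. Large subunit assembly genes had −3.76 without and −2.13 with it, called for 59 of 61, against 48.9% of all tested genes. Purine synthesis genes had −1.58 without and −0.36 with it, called for 16 of 16, and aminoacyl-tRNA synthetase genes −1.35 and −0.60, called for 21 of 21. 

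Of the lists examined, aromatic breakdown had the largest difference of medians between the backgrounds. Its median was 3.58 without and 0.71 with 5ph-IAA, and ARO10 had 3.58 ± 0.05 without and 0.71 ± 0.05 with 5ph-IAA, a difference of 2.88 ± 0.07 (edgeR, adjusted p = 1.87e-11). Acetyl-CoA genes had medians of 2.13 without and 1.02 with it. The Hsp70 list had 2.16 without and 2.48 with it, the larger value being with 5ph-IAA. MGA1, an HSF-domain factor, also had the larger change with 5ph-IAA, at 1.93 ± 0.09 without and 4.94 ± 0.12 with 5ph-IAA. Over all tested genes the medians were 0.04 without and 0.01 with 5ph-IAA.

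**Figure D5:**
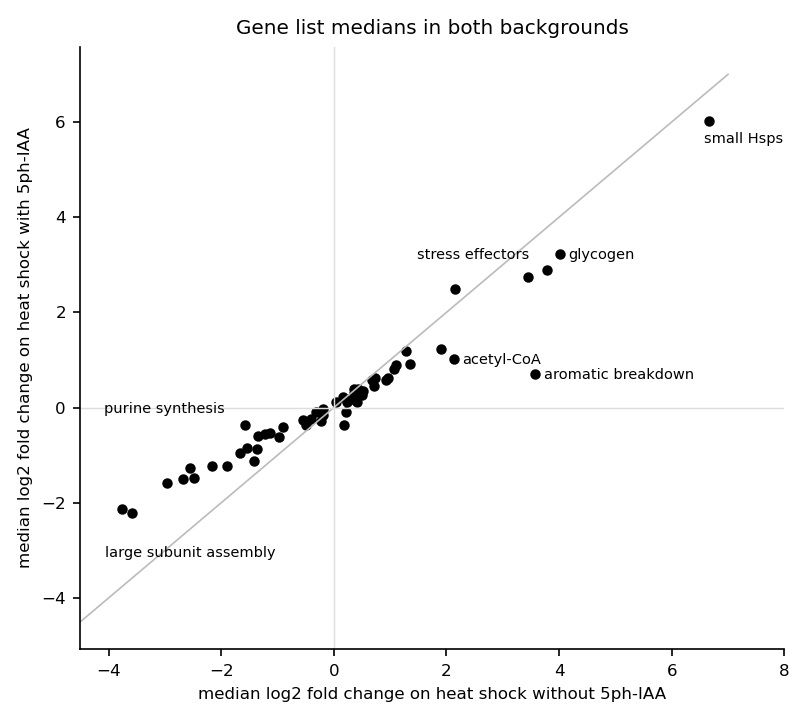
Median log2 fold change of 39 °C over 30 °C of each gene list without 5ph-IAA (horizontal axis) and with it (vertical axis); the diagonal marks equality. Ribosome assembly lists lie above the diagonal on the left, with smaller falls with 5ph-IAA (large subunit −3.76 and −2.13), and aromatic breakdown lies below it on the right (3.58 and 0.71).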

How the data were processed

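Polyadenylated RNA was made into libraries with TruSeq v2, a kit that does not mark strand, per the labels' protocols. The deposited tables give, per coding sequence, its length and effective length, estimated counts, which need not be whole, and TPM. The authors made them with kallisto, per the submitters' processing notes. Which version, transcripts and genome build they used is not given in the sources used here. Coding lengths equalled those of R64 for 6018 of 6034 targets (99.7%), and names, positions and upstream regions were taken from that assembly. Reads of near-identical genes are shared out by kallisto, and short targets such as MFA1, MFA2 and NOP10 are listed at 0.

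Estimated counts, once rounded to integers (whole numbers), entered 1 edgeR 4.0.16 quasi-likelihood fit (R 4.3.3) of all 8 libraries with TMM factors, filterByExpr and 4 residual degrees of freedom, 2-sided, with Benjamini-Hochberg adjustment over 5734 genes and a threshold of 0.05. The standard error was the log2 fold change divided by the square root of F. Differences between the changes without and with 5ph-IAA were a contrast of the same fit. The test was first tried on simulated counts in which most genes were left unchanged and all genes shared a common spread. That setting differs from these data, where 82.2% of tested genes were called, so nothing is concluded from it here. Lists were described by counts and medians, with no set test, and with 2 libraries a group no permutation p can fall below 0.33. Members and lists were chosen with earlier results of these data known. Genes were named by rule: all members of lists of up to 12 genes, the 5 largest rises and falls of longer lists and members called against their list's direction, all regulators and paralog pairs, the 15 largest changes outside lists with at least 50 mean counts, and the 15 most abundant genes. Some genes that this rule covers are not reported here. Alternatives were RLE factors, library totals, DESeq2 1.42.0, limma 3.58.1 on log2(TPM + 1) or log2(TPM + 0.1), no filter, thinned counts, the 4 libraries alone, a replicate block and each library left out. The labels used here name no added standard, so all levels are relative to their library.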

Additional observations from a re-analysis of the deposited data

Results flagged for a closer look

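Named genes whose heat change differed by at least 2 on the log2 scale between cells without and with 5ph-IAA are given here with that difference, without minus with; the difference was called for each (edgeR, Benjamini-Hochberg over all tested genes), and its cause was not tested. Among genes that rose, the change was larger without 5ph-IAA for RGI1 (3.10 ± 0.11), ARO10 (2.88 ± 0.07), TMA10 (2.64 ± 0.18), GSY1 (2.62 ± 0.11), HXK1 (2.36 ± 0.06), HXT7 (2.31 ± 0.06), ARO9 (2.31 ± 0.06), ALD6 (2.22 ± 0.06), TSL1 (2.20 ± 0.08), SPO24 (2.13 ± 0.22), MPC3 (2.12 ± 0.32), CYC7 (2.03 ± 0.13) and GPH1 (2.01 ± 0.07). The heat change of RGI1 was 8.40 ± 0.08 without and 5.29 ± 0.06 with 5ph-IAA, and that of ALD6 was 2.89 ± 0.05 without and 0.67 ± 0.04 with 5ph-IAA. Among these genes, HXT7 can share reads with HXT6.

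Among genes that fell, BSC1 had the largest difference apart from a Ty sequence (−5.02 ± 0.27), with a heat change of −4.49 ± 0.11 without and 0.53 ± 0.23 with 5ph-IAA. The fall was also larger without 5ph-IAA for DBP2 (−2.67 ± 0.07), ARX1 (−2.46 ± 0.11), RPF2 (−2.28 ± 0.10), MTR4 (−2.18 ± 0.10), RPL4B (−2.14 ± 0.06), which can share reads with RPL4A, TSR1 (−2.12 ± 0.11), UTP13 (−2.12 ± 0.11), UTP4 (−2.10 ± 0.08), PUF6 (−2.05 ± 0.09), PWP1 (−2.03 ± 0.11) and NEW1 (−2.02 ± 0.07). The heat change of DBP2 was −4.51 ± 0.05 without and −1.84 ± 0.05 with 5ph-IAA. MGA1 rose more with 5ph-IAA, with a difference of −3.01 ± 0.17. The Ty gag sequence YCL020W had a difference of −13.95 ± 2.17, a fitted value that rests on libraries at or near 0 counts and is no measure of size.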

How the results depend on the processing

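The counts of genes kept within 1.5 times of those reported under every alternative tried. Leaving out 1 library at a time gave 2310 to 2346 genes higher, 2166 to 2187 lower, 1076 to 1104 at least 2-fold higher, 978 to 1019 at least 2-fold lower and 2421 to 2625 with a different change without and with 5ph-IAA. With the replicate block the numbers were 2435, 2271, 1089, 986 and 2809. Whether same-numbered libraries were paired was not settled. Across 5734 genes, the deviations of heat shock and control replicate 1 from their group means correlated at 0.0259. With 2 libraries a group, replicate 2 mirrors replicate 1, so this value cannot decide the question. DESeq2 gave 2206 higher and 2298 lower, library totals 2254 and 2444, and limma on log2(TPM + 1) 2701 and 1942. The number with a different change without and with 5ph-IAA was 2346, 3458 and 3565 in that order, against 2805. On that TPM scale the median of all genes was 0.18, against 0.04, so small changes there are best read against it. Of the 4712 calls, 4362 to 4700 were called in the same direction under each alternative and none in the opposite one. Thinning every library at random to 7717771 counts, the smallest total, gave 2377 higher and 2234 lower. The gene lists were less stable than these counts. List medians shifted by at least their spread between single libraries in 350 of 770 comparisons with an alternative. List shares did so in 8 of 24, and counts of list members moved by more than 1.5 times, or to or from 0, in 49 of 1540.
Among the named genes, the calls of GPM1, HIS5, MIG2, PHO4, RPB4, PGM1 and TIF4632 depended on the alternative, as given beside them, and no named gene that was called changed direction. Estimated counts of shared sequences, 2 libraries a group and levels relative to the library total limit these values, and intervals were not given for genes listed at 0.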

Other observations

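Genes beside strongly risen genes were counted by orientation. Of 86 tested divergent neighbours of genes that rose at least 8-fold, 53 were higher (61.6%), against 42.9% of 2776 divergent neighbours of all tested genes. For tandem upstream neighbours it was 62 of 110 (56.4%), against 43%, for tandem downstream neighbours 49 of 105 (46.7%), against 42.3%, and for convergent neighbours 47 of 96 (49%), against 42.7%. The kit does not mark strand, so reads past a gene's end cannot be told apart from the neighbour's own. Of 26 tested neighbours of the 15 largest rises with at least 50 mean counts, 9 were higher, 13 lower and 4 not called. The highest were VPS62, upstream of BTN2 (4.23 ± 0.06), YPK2, beside PGM2 (2.41 ± 0.06), and PDC6, divergent from CTT1 (1.81 ± 0.32), and the lowest UTR2, beside CYC7 (−2.79 ± 0.05), RPF1, beside RTC3 (−2.40 ± 0.07), and YAH1, beside ATG41 (−2.32 ± 0.09).

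Targets without a symbol in the deposited tables had a median log2 fold change of 0.37, with 339 higher and 197 lower of 724 tested, against 0.01 for those with one. Genes with a coding sequence in at least 2 exons, ribosomal protein genes left out, had 76 higher and 88 lower of 224 tested (median −0.05). Of all tested genes 42.5% were higher and 39.7% lower. The Ty gag sequences YML045W-A and YCL020W were at least 281-fold and at least 102-fold lower at 39 °C with a floor of 3 counts per library, but the 2 control libraries held 153.2 and 625.8 estimated counts of YML045W-A, and such copies can share reads. Of 10 meiosis markers 5 rose and 2 fell (median 0.50), against 42.5% higher and 39.7% lower of all tested genes. Together the markers held 0.0234% and 0.0241% of the TPM at 39 °C, against 0.0161% and 0.0166% at 30 °C.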
